A study of Mus musculus with 6 samples.

Results

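The 10 ribosomal protein genes examined form 5 pairs and were followed through a knockdown of Rsl24d1. The pairs are Rpl22 and Rpl22l1, Rpl7 and Rpl7l1, Rpl39 and Rpl39l, Rpl36a and Rpl36al, and Rps27 and Rps27l. They were found by symbol in the count table, which holds 22332 genes, and all 10 members were present and passed the filter on low counts. The cells were CGR8, a mouse embryonic stem cell line, grown on gelatin with LIF, a cytokine that maintains pluripotency, and 10% serum (FBS). Collection was 48 hours after siRNA transfection. The control group (siCtrl, n = 3) had received a pool of non-targeting siRNAs and the other group (siRSL24D1, n = 3) a pool against Rsl24d1, whose product helps build the large ribosomal subunit. Both groups carried siRNA, and all 6 libraries came from this single line. The design text calls the triplicates independent, and the labels do not say whether they were separate cultures on separate days, so p-values measure the spread between these samples.

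The ribosome is built from ribosomal RNA and a large set of proteins, most of them encoded in mammals by a single expressed gene. A few have a second functional gene, a paralog, that arose by duplication or by retroposition of an mRNA and can encode a slightly different or an identical protein. In the 5 pairs the shorter name is the canonical gene, expressed in nearly all tissues, and the name ending in l or l1 is the paralog. Paralogs are known for use in particular cells or states: Rpl39l in male germ cells and stem cells, Rps27l as a target of p53, and Rpl22l1 as a gene that the Rpl22 protein itself holds down.

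Library totals lay between 30943635 and 35214000 estimated counts, and the 10 members together took 0.508% to 0.569% of them in siCtrl and 0.445% to 0.479% in siRSL24D1. Rsl24d1 mRNA was at 99.4, 102.7 and 98.0 CPM (library-size-scaled counts) in siCtrl and at 53.8, 55.6 and 52.1 CPM in siRSL24D1, a log2 fold change of -0.89 ± 0.04 (standard error). The Rsl24d1 locus overlaps Gm20509 on the same strand, and reads common to both cannot be told apart. Gm20509 was given 2.58 estimated counts in siCtrl 2 and 0 in every other library. All 12 embryonic stem cell markers examined had at least 1 CPM in every library, and their summed level was 3570 to 3860 CPM in siCtrl and 3120 to 3240 CPM in siRSL24D1. Summed trophoblast markers stood at 865 to 895 and 1080 to 1290 CPM, and neuroectoderm markers at 246 to 257 and 341 to 400 CPM. Most of the trophoblast sum was Krt18, with TMM-scaled means of 804 and 1104 CPM. Most of the neuroectoderm sum was Nes, with means of 211 and 301 CPM. Endoderm markers stood at 86.7 to 98.5 and 80.5 to 94.8 CPM, and fibroblast markers at 151 to 185 and 143 to 170 CPM. Of the tested genes 7 of 12 stem cell markers fell and 1 rose, 4 of 6 trophoblast markers rose and 1 fell, 2 of 5 neuroectoderm markers rose, 2 of 7 endoderm markers rose and 2 fell, and 1 of 9 fibroblast markers rose and 3 fell. Over all genes tested 21.2% were called higher and 20% lower, so that the endoderm and fibroblast counts lie near this background. No marker was at 0 in all libraries, and the part of other cell types in the results was not tested. In bulk RNA, fewer cells of a type and less RNA per cell cannot be told apart. Scaled by TMM, siCtrl 3 was the lowest of the siCtrl libraries for all 10 members.

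The members are spread over the genome (GENCODE M21, GRCm38). Rpl22 lies on chromosome 4 (152325742 to 152334071) and Rpl22l1 on chromosome 3 (28805436 to 28807424). Rpl7 lies on chromosome 1 (16101295 to 16104662) and Rpl7l1 on chromosome 17 (46773907 to 46782672). Rpl39 (37082520 to 37085402) and Rpl36a (134585654 to 134588062) are X-linked, while their paralogs are autosomal. Rpl39l lies on chromosome 16 (10170226 to 10174911) and Rpl36al on chromosome 12 (69182731 to 69184083). The longest annotated transcript of Rpl36al has a single exon. Rps27 lies on chromosome 3 (90212522 to 90213651) and Rps27l on chromosome 9 (66946086 to 66949516). Rps27rt, a single-exon retrocopy of Rps27 on chromosome 9 (114982366 to 114982739), lies within the span of Osbpl10, on the other strand.

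How alike the coding sequences are decides which reads can be told apart. Rps27 and Rps27rt have the same coding sequence, with 0 differences over 255 bases, so it is shown once for both:
Rps27 and Rps27rt: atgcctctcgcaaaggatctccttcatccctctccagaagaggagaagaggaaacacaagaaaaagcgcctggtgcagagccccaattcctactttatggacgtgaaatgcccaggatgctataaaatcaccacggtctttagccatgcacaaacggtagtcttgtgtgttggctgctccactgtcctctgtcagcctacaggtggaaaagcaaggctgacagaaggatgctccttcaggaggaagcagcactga
Of the 50-base stretches of the longest Rps27 transcript, 63.1% also occur in Rps27rt, and 91.1% of those of Rps27rt occur in Rps27. By contrast Rps27 and Rps27l differ at 61 of 255 coding bases, and no 50-base stretch of Rps27l occurs in another gene of the table.

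Rpl39 and Rpl39l differ at 23 of 156 coding bases in 21 codons, and 3 of these encode a different amino acid. They are shown because Rpl39l is the scarcest member and its counts rest on these differences, in capitals, and on the rest of the mRNA:
Rpl39: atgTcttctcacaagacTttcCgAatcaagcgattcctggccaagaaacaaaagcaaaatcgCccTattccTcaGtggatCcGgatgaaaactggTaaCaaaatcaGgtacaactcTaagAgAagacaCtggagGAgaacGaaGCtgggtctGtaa
Rpl39l: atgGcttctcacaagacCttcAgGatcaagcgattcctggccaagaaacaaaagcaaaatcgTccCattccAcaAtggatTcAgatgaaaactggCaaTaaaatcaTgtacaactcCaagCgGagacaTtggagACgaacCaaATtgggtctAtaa
Rpl22 and Rpl22l1, and Rpl7 and Rpl7l1, are further apart, with 66.9% identity over the aligned coding bases for the former and 52.8% for the latter.

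Most mRNAs of ribosomal proteins begin with a C followed by a run of pyrimidines, the 5′ terminal oligopyrimidine tract through which their translation is controlled. The windows from 30 bases before to 30 bases after the RefSeq transcript start (GRCm38.p6) were available for 9 members. They are shown to compare the canonical genes with their paralogs, and capitals mark the longest run of a C followed by at least 4 bases that are C or T, searched on the gene's strand only and starting within 10 bases of the start:
Rpl22 (chr4:152325696-152325755, plus strand): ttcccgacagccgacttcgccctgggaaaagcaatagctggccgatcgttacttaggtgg
Rpl22l1 (chr3:28805478-28805537, plus strand): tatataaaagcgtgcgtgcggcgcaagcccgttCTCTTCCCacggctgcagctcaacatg
Rpl7l1 (chr17:46782627-46782686, minus strand): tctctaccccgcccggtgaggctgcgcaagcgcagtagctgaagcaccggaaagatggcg
Rpl39 (chrX:37085193-37085252, minus strand): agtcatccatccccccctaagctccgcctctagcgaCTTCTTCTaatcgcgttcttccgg
Rpl39l (chr16:10170198-10170257, plus strand): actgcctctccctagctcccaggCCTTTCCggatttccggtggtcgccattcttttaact
Rpl36a (chrX:134585624-134585683, plus strand): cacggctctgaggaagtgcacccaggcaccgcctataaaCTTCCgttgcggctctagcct
Rpl36al (chr12:69184038-69184097, minus strand): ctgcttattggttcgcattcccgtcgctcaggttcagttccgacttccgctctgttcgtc
Rps27 (chr3:90213619-90213678, minus strand): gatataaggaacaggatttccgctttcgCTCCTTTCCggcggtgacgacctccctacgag
Rps27l (chr9:66946056-66946115, plus strand): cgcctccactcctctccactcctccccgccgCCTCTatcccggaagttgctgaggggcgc
Such a run was present for 6 of 9 members, 3 of 4 canonical genes and 3 of 5 paralogs. The share was 55.6% (30 of 54) among the other ribosomal protein genes with a window and 33.2% among genes of the count table. It was 29% among all 32851 windows of the RefSeq table. Members were scored only on the window nearest their GENCODE start. The other ribosomal protein genes and the genes of the count table were scored on the longest run over all their windows. Runs of at least 8 bases were found for Rpl22l1, Rpl39 and Rps27, 3 of 9 members. The share was 35.2% (19 of 54) for the other ribosomal protein genes, 8.61% for genes of the count table and 7.25% for all windows. Rpl22l1, the member with the largest fall, had a run of 8 bases starting 3 bases after the start. Rpl22, Rpl7l1 and Rpl36al had none starting within 10 bases of the start. The GENCODE starts of Rpl22, Rpl22l1 and Rpl39, among others, lie elsewhere than the RefSeq starts used.

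Levels between genes were compared per length, as TPM (counts divided by transcript length and scaled to a common total) computed from the counts and the longest annotated protein-coding transcript. In siCtrl the order from the highest was Rpl7 at 3418 ± 97.2 TPM, Rpl36a at 2638 ± 55.3, Rpl39 at 2403 ± 53.2, Rps27 at 2362 ± 482, Rps27l at 1014 ± 17.5, Rpl22l1 at 921 ± 22.8, Rpl22 at 589.8 ± 11.8, Rpl36al at 410.3 ± 15.1, Rpl7l1 at 139 ± 1.11 and Rpl39l at 9.15 ± 0.79 TPM (SD, n = 3). At these lengths Rps27 could not be separated from Rpl39 or Rpl36a beyond its spread, and the other neighbours differed by more than their SD. The value of Rps27 carries an uncertain split with its copy Rps27rt, and summed with it was 4438 ± 193 TPM, above Rpl7. With 200 bases taken off each length, Rpl36a and Rps27 also ranked above Rpl7. The shortest transcripts placed Rpl22 (918.8 TPM) above Rpl39 (865.1) and Rps27l (774.3), and Rpl36al (358.5) above Rpl22l1 (348.8). With the longest transcripts the canonical gene was the higher of its pair in 4 pairs, and Rpl22l1 stood above Rpl22.

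That last order also depended on the transcript length used. Rpl22 has annotated protein-coding transcripts from 474 to 2051 bases, and Rpl22l1 from 525 to 552. The siCtrl ratio of Rpl22l1 to Rpl22 was 1.56 with the longest transcripts and 0.38 with the shortest. For the other pairs the paralog remained below the canonical gene under all 5 length choices, and Rpl39l, at 0.00341 to 0.00557 of Rpl39, was the scarcest member under each. With the longest transcripts the paralog made up 61% of the siCtrl pair total for Rpl22 and Rpl22l1, 30.4% for Rps27 and Rps27l, 13.5% for Rpl36a and Rpl36al, 3.91% for Rpl7 and Rpl7l1 and 0.379% for Rpl39 and Rpl39l. The share of Rps27l was 18.6% with Rps27 and Rps27rt summed. With the shortest transcripts the share was 27.4% for Rpl36al, 14.3% for Rpl7l1 and 27.5% for Rpl22l1.

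**Figure D1:**
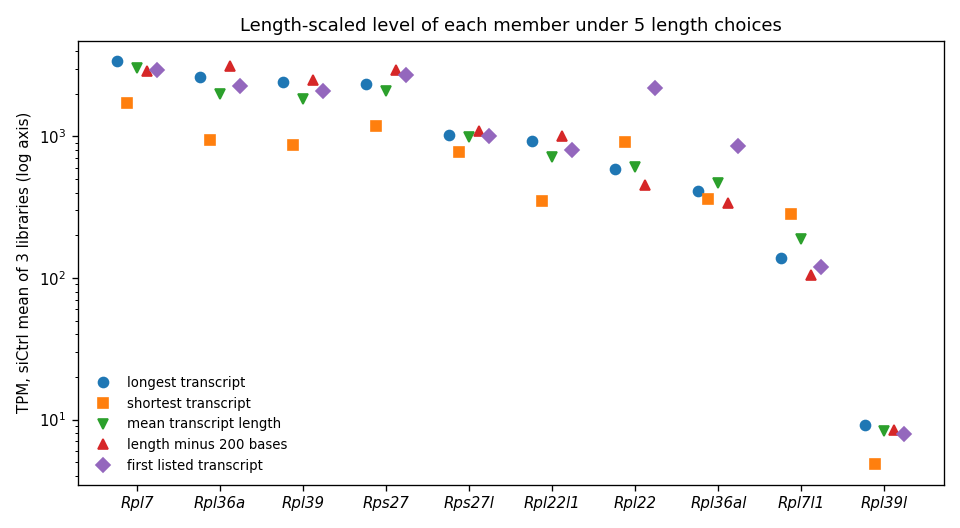
Length-scaled level (TPM, siCtrl mean of 3 libraries, log axis) of the 10 members, each under 5 choices of transcript length shown by marker shape. Rpl39l lies lowest under every choice, at 9.15 TPM with the longest transcript, while Rpl22 and Rpl22l1 change places.

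After Rsl24d1 knockdown, 5 of the 10 members fell, 1 rose and 4 did not pass the test (edgeR, adjusted p under 0.05 over 15084 genes). Across all genes tested 20% were called lower, 21.2% higher and 41.2% in either direction. The canonical genes Rpl22, Rpl7, Rpl39 and Rpl36a fell, by 14.1% to 20.7%. Among the paralogs Rpl22l1 fell by 49.5% and Rpl7l1 rose by 18.5%, while Rpl39l, Rpl36al, Rps27l and the canonical Rps27 did not pass. The median log2 fold change was -0.23 over the members and 0.02 over all genes tested. The groups did not overlap for 6 members, each of them called, and across all genes tested they did not overlap for 53%.

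**Figure D2:**
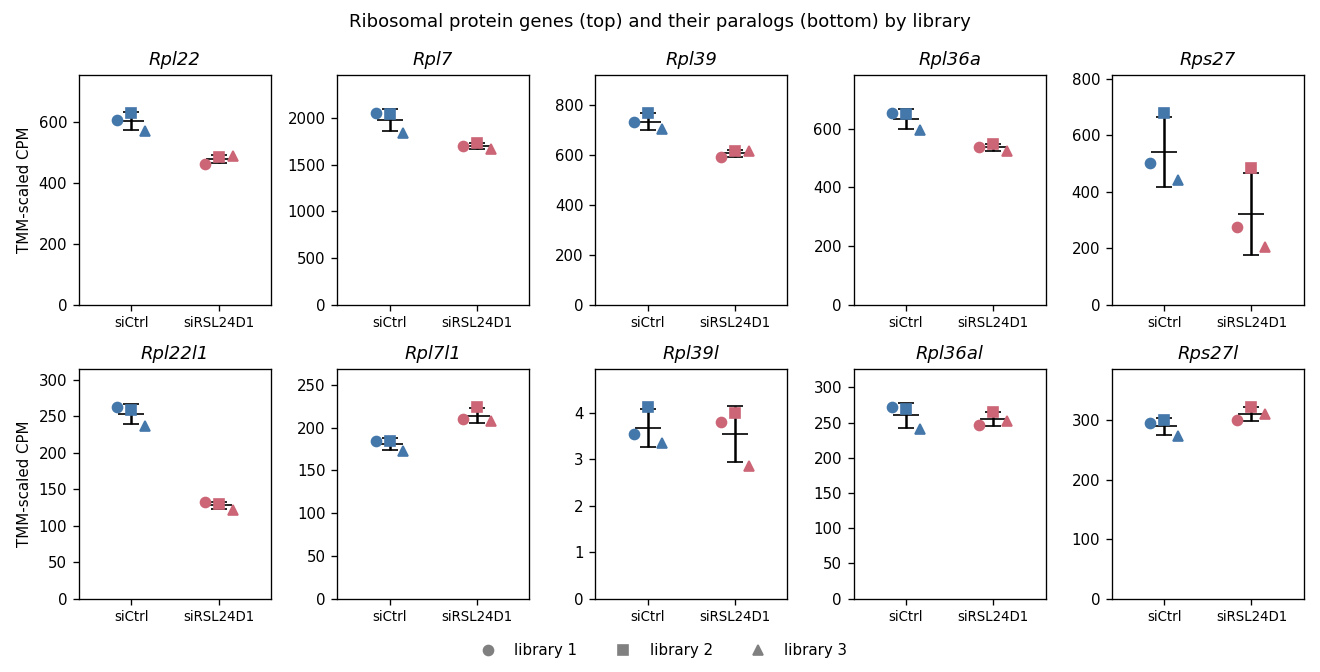
TMM-scaled CPM of each member in the 6 libraries (points, shape by library number), with mean and SD as bars; canonical genes are in the top row, paralogs below, and every axis starts at 0. Rpl22l1 lies at 237 to 263 CPM in siCtrl and 122 to 132 CPM in siRSL24D1, and the Rps27 values scatter most.

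Rpl22l1 showed the largest change of the members. It was at 262.8, 259.2 and 237.2 CPM in the siCtrl libraries and at 132.3, 129.2 and 122.1 CPM in the siRSL24D1 libraries. All siRSL24D1 values lay below all siCtrl values, with a wide gap. The log2 fold change was -0.98 ± 0.05 (standard error, adjusted p = 2.2e-05), lower than that of each of the 74 other ribosomal protein genes tested, and 2.04% of all genes tested were lower still.

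Rpl22, an RNA-binding protein of the large subunit, fell too but less. It was at 607.0, 628.7 and 569.8 CPM in siCtrl and at 461.9, 483.0 and 487.2 CPM in siRSL24D1, with no overlap. The log2 fold change was -0.33 ± 0.05 (adjusted p = 0.00107). The ratio of Rpl22l1 to Rpl22 counts was 0.433, 0.412 and 0.416 in siCtrl and 0.287, 0.267 and 0.251 in siRSL24D1, so that every siRSL24D1 library lay below every siCtrl library. The ratio changed by -0.65 ± 0.06 on the log2 scale, to 0.637 of its siCtrl value (two-sided exact permutation test, p = 0.1, below which a design of 3 against 3 cannot go, and adjusted p = 0.125 over the 5 pairs). The Rpl22l1 share of the pair's TPM went from 61 ± 0.62% to 49.9 ± 1.7% with the longest transcripts and from 27.5 ± 0.52% to 19.5 ± 1.1% with the shortest. With the longest transcripts Rpl22 (489.9 ± 17.8 TPM) and Rpl22l1 (487.6 ± 22) did not differ beyond their spread in siRSL24D1, and with the shortest transcripts they did, as that share shows. Of the 50-base stretches of Rpl22l1, 57.3% occur in pseudogenes that are not rows of the table, and whether reads of these were counted to Rpl22l1 was not tested.

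Rpl7 and Rpl7l1 moved in opposite directions. Rpl7, a large-subunit protein, was at 2053, 2038 and 1843 CPM in siCtrl and at 1698, 1733 and 1669 CPM in siRSL24D1. The groups did not overlap, and the log2 fold change was -0.22 ± 0.05 (adjusted p = 0.0109). This call was lost without siCtrl 1 (adjusted p = 0.0512), without siCtrl 2 (0.0625) or without siRSL24D1 3 (0.0506). Rpl7l1, related to a yeast protein that assists assembly of the large subunit, was at 184.6, 184.3 and 172.3 CPM in siCtrl and at 209.6, 224.0 and 207.8 CPM in siRSL24D1. It was higher in every siRSL24D1 library than in any siCtrl library, with a log2 fold change of 0.25 ± 0.05 (adjusted p = 0.00431).

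The ratio of Rpl7l1 to Rpl7 counts was 0.0899, 0.0904 and 0.0935 in siCtrl and 0.123, 0.129 and 0.125 in siRSL24D1. The groups lay far apart relative to their spread, with a difference of 0.46 ± 0.03 on the log2 scale, a 1.38-fold higher ratio (exact permutation p = 0.1, adjusted p = 0.125). Of the 50-base stretches of Rpl7, 53.3% occur in 13 pseudogenes that are not rows of the table, as for Rpl22l1. Rpl7l1 was the one member called higher, and its fold change lay above those of all 74 other ribosomal protein genes tested, of which 0 were called higher. Among 45 assembly factors of the large subunit, 20 rose and 2 fell, Noc2l and Rsl24d1 itself, with a median log2 fold change of 0.12 against 0.02 over all genes tested, of which 21.2% were called higher and 20% lower. The largest rise was that of Nifk, a nucleolar assembly factor, at 0.45 ± 0.05 (adjusted p = 0.000327). The number of factors that rose was 13 without siCtrl 2, and the number that fell was 6 without siCtrl 3 and 1 without siCtrl 2.

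Rpl39 and Rpl39l differ in level more than any other pair. Rpl39, a small protein that lines the exit tunnel of the large subunit, was at 728.5, 765.8 and 700.4 CPM in siCtrl and at 589.9, 612.8 and 614.6 CPM in siRSL24D1. It fell without overlap by 0.27 on the log2 scale, with a standard error of 0.05 (adjusted p = 0.00219). Rpl39l, the germ cell and stem cell form, had 117, 134 and 114 estimated counts in siCtrl and 119, 140 and 95 in siRSL24D1. These groups overlapped, and the log2 fold change was -0.05 with a 95% interval from -0.40 to 0.31 (adjusted p = 0.833). A change of the size seen for Rpl39 lies within that interval. The ratio of Rpl39l to Rpl39 was 0.00486, 0.00538 and 0.00477 in siCtrl and 0.00643, 0.00651 and 0.00465 in siRSL24D1, so siRSL24D1 3 lay below all siCtrl libraries and the other two above them (difference 0.21 ± 0.17, exact permutation p = 0.4, adjusted p = 0.4). Without siRSL24D1 3 that difference was 0.37.

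Of Rpl36a and Rpl36al, which encode closely related proteins of the large subunit, the X-linked gene fell and the autosomal gene did not pass the test. Rpl36a was at 654.1, 652.1 and 595.7 CPM in siCtrl and at 539.5, 548.3 and 524.2 CPM in siRSL24D1, without overlap. It had a log2 fold change of -0.24 ± 0.05 (adjusted p = 0.00521). Rpl36al was at 272.0, 269.5 and 240.3 CPM in siCtrl and at 246.4, 265.7 and 252.0 CPM in siRSL24D1, and these groups overlapped. Its log2 fold change was -0.03, with a 95% interval from -0.16 to 0.10 (adjusted p = 0.675). The ratio of Rpl36al to Rpl36a counts was 0.416, 0.413 and 0.403 in siCtrl and 0.457, 0.485 and 0.481 in siRSL24D1. All siRSL24D1 ratios were the higher, by 0.21 ± 0.03 on the log2 scale or 1.15-fold (exact permutation p = 0.1, adjusted p = 0.125). Of the 50-base stretches of Rpl36a, 85.5% occur in at least 1 of 8 other genes. Only 2 of these are rows of the table, Rpl36a-ps1 and Gm6525, which hold 62.2% of the stretches. Rows that share sequence with the pair took few counts. Rpl36a-ps1 had 2.24 estimated counts in siRSL24D1 1 and 0 in every other library, and Gm6525 had 0 to 2. Gm49383, which overlaps Rpl36al on the same strand, had 0 to 95.1. Whether reads of the copies outside the table were counted to Rpl36a was not tested.

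**Figure D3:**
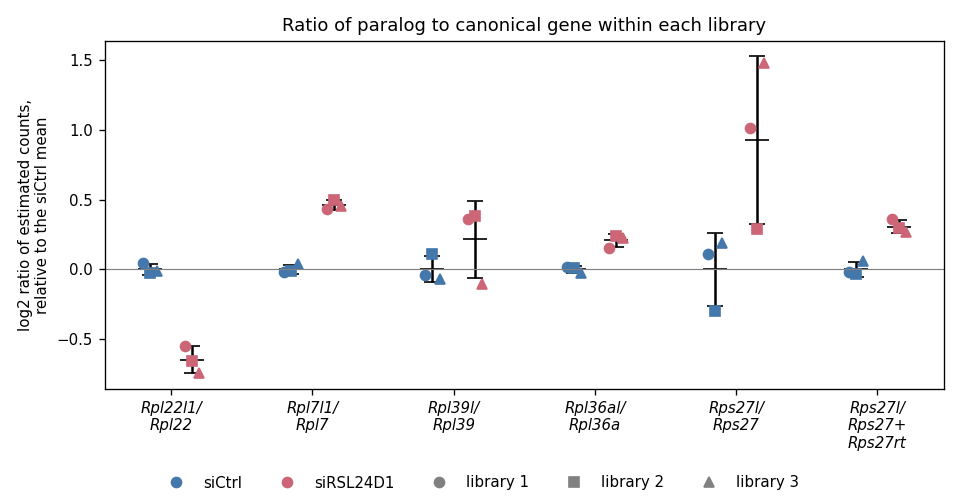
Log2 ratio of paralog to canonical estimated counts in each library (points), relative to the siCtrl mean of the pair, with mean and SD as bars; the rightmost pair uses the summed counts of Rps27 and Rps27rt. Rpl22l1/Rpl22 lies 0.65 lower in siRSL24D1, Rpl7l1/Rpl7 0.46 and Rpl36al/Rpl36a 0.21 higher, and Rpl39l/Rpl39 overlaps between the groups.

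Rps27 had by far the widest scatter of the members. It was at 500.4, 678.0 and 441.1 CPM in siCtrl and at 273.3, 483.7 and 204.2 CPM in siRSL24D1, and the groups overlapped. The coefficient of variation was 22.8% in siCtrl and 45.4% in siRSL24D1, against 3.89% to 6.76% and 1.89% to 4.15% for the members other than Rpl39l (11% and 17%). The log2 fold change was -0.75 ± 0.29 and did not pass (adjusted p = 0.0703). The call turned on the setting and on single libraries: it passed after the length correction (-0.70, adjusted p = 0.0296), without siCtrl 3 (-0.89, adjusted p = 0.0405) and without siRSL24D1 2 (-1.18, adjusted p = 0.0027).

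The retrocopy Rps27rt scattered in the opposite sense. It was at 457.3, 303.5 and 395.4 CPM in siCtrl and at 470.5, 352.0 and 617.7 CPM in siRSL24D1, lowest in library 2 of each group, where Rps27 was highest. Of the counts given to either gene, Rps27 took 52.3%, 69.1% and 52.7% in siCtrl and 36.7%, 57.9% and 24.8% in siRSL24D1. Since their coding sequences are identical, the split between them is uncertain and only the sum can be read as a level. The sum was at 957.7, 981.5 and 836.5 CPM in siCtrl and at 743.8, 835.8 and 822.0 CPM in siRSL24D1. These are means of 925.2 ± 77.8 and 800.5 ± 49.6 CPM, a narrower spread relative to the mean than that of either copy. The highest siRSL24D1 value lay just below the lowest siCtrl value.

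Counted as a single gene, Rps27 and Rps27rt had a log2 fold change of -0.21 ± 0.07 (adjusted p = 0.045), a comparison chosen after their values were seen. The call was lost without siCtrl 1 (adjusted p = 0.132), siCtrl 2 (0.165), siRSL24D1 1 (0.147) or siRSL24D1 3 (0.0846), and with scaling to library totals (0.051) or a correction for transcript length (0.0815). It was smaller than the -0.75 of Rps27 alone, and close to the median of -0.21 over the 31 other small-subunit genes.

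**Figure D4:**
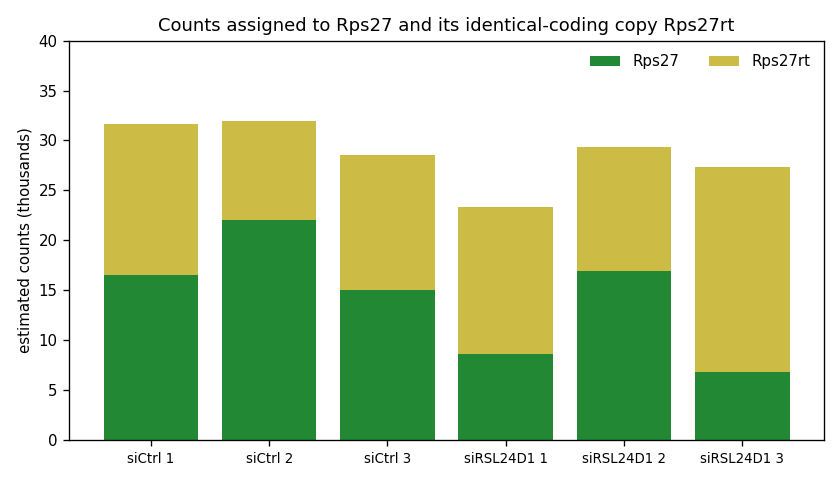
Estimated counts given to Rps27 (green) and its retrocopy Rps27rt (yellow) in each of the 6 libraries, stacked so that the bar height is their sum. The share given to Rps27 runs from 24.8% to 69.1%.

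Rps27l, the p53-responsive paralog, was at 295.4, 300.6 and 273.8 CPM in siCtrl and at 299.6, 321.9 and 309.7 CPM in siRSL24D1. The lowest siRSL24D1 value lay under the highest siCtrl value, and the log2 fold change was 0.10 with a 95% interval from -0.01 to 0.21 (adjusted p = 0.145). Corrected for length it was 0.17 and passed the test (adjusted p = 0.0114), and corrected for GC content it was 0.07 and did not (adjusted p = 0.423). Of 21 alternatives, 19 left it not called. Of 38 p53 target genes tested, 27 rose and 2 fell, at a median of 0.37, where 21.2% of all genes tested were called higher. Cd80, a costimulatory ligand of T cells, had the largest rise, at 1.40 ± 0.13 (adjusted p = 0.000154), and Ddb2, a DNA damage sensor, the largest fall, at -0.76 ± 0.09 (adjusted p = 0.000516). Cd80 was scarce, with means of 1.57 CPM in siCtrl and 4.18 CPM in siRSL24D1. Trp53, which encodes p53, rose by 0.25 (adjusted p = 0.00325).

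The ratio of Rps27l to Rps27 was 0.59, 0.443 and 0.621 in siCtrl and 1.1, 0.665 and 1.52 in siRSL24D1. Its difference of 0.92 ± 0.38 on the log2 scale carries the uncertain split of Rps27. With Rps27 and Rps27rt summed the ratio was 0.309, 0.306 and 0.327 in siCtrl and 0.403, 0.385 and 0.377 in siRSL24D1. The groups did not overlap, and the difference was 0.31 ± 0.04, a 1.24-fold higher ratio (exact permutation p = 0.1 in both forms).

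Beside the members, 58 of 74 other ribosomal protein genes fell and 0 rose, 33 of 43 in the large and 25 of 31 in the small subunit, where 20% of all genes tested were called lower. Their log2 fold changes ran from -0.54 for Rpl3 to -0.06 for Rplp0, with a median of -0.22 and quartiles at -0.26 and -0.17. Rpl3 is part of the peptidyl transferase region (adjusted p = 0.000366), and Rps20 had the largest fall of the small subunit, at -0.34 ± 0.05 (adjusted p = 0.00166). Rpl24, the ribosomal protein related to Rsl24d1, was at -0.19 (adjusted p = 0.0359), a call lost with the length correction (adjusted p = 0.0809) and when any library but siCtrl 3 or siRSL24D1 2 was left out (adjusted p = 0.0976 to 0.148). The number that fell was 26 without siCtrl 1, 20 without siCtrl 2, 28 without siRSL24D1 1 and 24 without siRSL24D1 3.

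Each member can be placed against that range. The log2 fold changes of Rpl22, Rpl7, Rpl39 and Rpl36a, from -0.33 to -0.22, were within the range of the other ribosomal protein genes. Those of Rpl7l1, Rpl39l, Rpl36al and Rps27l, from -0.05 to 0.25, were above all 74 of them, and those of Rpl22l1 and of the canonical Rps27, with its uncertain split, were below all of them. These positions are a description of the estimates alone. The 95% intervals of Rps27 (-1.42 to -0.08) and Rpl39l (-0.40 to 0.31) span much of the range, and that of Rpl36al (-0.16 to 0.10) reaches into it. Of 5 further paralogs listed, 3 were in the table and 2 were tested: Rpl10l, a retrogene of Rpl10 used in the male germ line, rose from 6.86 ± 0.49 to 10.8 ± 1.51 CPM (log2 fold change 0.66 ± 0.12, adjusted p = 0.00273), and Rps27rt is given above.

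**Figure D5:**
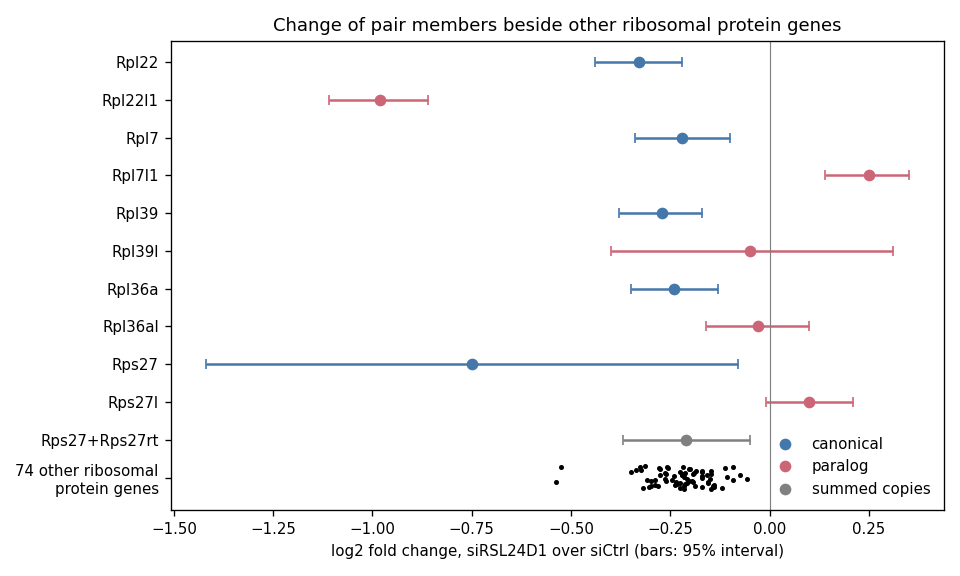
Log2 fold change, siRSL24D1 over siCtrl, of each member with its 95% interval (canonical genes blue, paralogs red, summed Rps27 copies grey) and of the 74 other ribosomal protein genes (black points, spread vertically for visibility). The canonical members other than Rps27 lie among the other ribosomal protein genes, Rpl22l1 at -0.98 and Rpl7l1 at 0.25 outside their range of -0.54 to -0.06.

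Across the 6 libraries each member's profile of log2 CPM, centred on its mean, was compared with those of 9868 other tested genes (9869 for Rpl39l). These had an average log2 CPM of 3 or more, and clone-based, predicted and accession-type symbols were left out. By Euclidean distance the nearest gene was Pfkl for Rpl22l1 (0.049), Spg7 for Rpl22 (0.035), Zfp143 for Rpl7 (0.028) and Trim35 for Rpl7l1 (0.034). It was Mtmr7 for Rpl39 (0.043), Adap1 for Rpl39l (0.16), Rhoc for Rpl36a (0.025), Cox6b1 for Rpl36al (0.016), Emg1 for Rps27l (0.018) and Igsf1 for Rps27 (0.67). No member was nearest to its partner: 932 genes were nearer to Rpl22l1 than Rpl22 was, and 2531 were nearer to Rpl36a than Rpl36al was, the smallest such number for each of those pairs.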

How the data were processed

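RNA was sequenced as ribosomal RNA-depleted total RNA with a stranded kit, per the labels' protocols. The values the authors deposited are estimated counts per gene symbol without scaling. STAR 2.7.0f, Salmon 0.14.1 and GRCm38 are named in the submitters' processing notes, and no source used here gives their roles, the annotation release or the strand setting. Groups and replicate numbers come from the sample titles. Counts were rounded, filtered with filterByExpr (minimum count 10, minimum total 15; 15084 genes left), scaled by TMM and tested in edgeR 4.0.16 (R 4.3.3) by quasi-likelihood F test, two-sided, with Benjamini-Hochberg adjustment over all genes tested. CPM values are TMM-scaled, except the summed marker levels, which are scaled to library totals.

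Ratios use unrounded counts, and their group difference was tested by exact permutation (SciPy 1.17.1); ± gives the SD of levels and the standard error of differences. TPM uses GENCODE M21 lengths. Coding sequences are from GENCODE M21, aligned with Biopython 1.88, and start windows are from RefSeq; the coding sequence comparison of Rpl36a and Rpl36al is not reported here. Named genes are the members, Rsl24d1, Rpl24, Trp53, the largest called rise and fall of each list, the nearest gene of each member and copies of members; Noc2l, Rplp0 and Gm49383 were named after their values were seen. Members and lists were chosen with earlier results of these data known. Simulated data were used to check the fit. Of 220 listed genes, 217 were in the table and had a length. Alternatives were other scalings, filters and tests, DESeq2 1.42.0 and limma 3.58.1 among them, loess corrections for length and GC content, a replicate block, a threshold of 0.01, unrounded values and leaving out each library.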

Additional observations from a re-analysis of the deposited data

How the results depend on the processing

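Rpl22, Rpl22l1, Rpl7l1, Rpl39 and Rpl36a kept their direction and call under all 21 alternatives each. Rpl7 lost its call under 4: the threshold of 0.01 (adjusted p = 0.0109) and the 3 left-out libraries named with it. The number of members that fell was 4 to 6 and the number that rose 1 throughout, except 2 after the length correction, with or without the replicate block, where Rps27l passed. Members not past the test changed sign: Rpl39l was at 0.02 after the length correction, 0.01 with the block added, and -0.14 to 0.09 with a library left out (0.04 without siCtrl 2, 0.09 without siRSL24D1 3), and Rpl36al was at 0.02 after the length correction, with and without the block. Of the other ribosomal protein genes 20 to 72 fell when a library was left out, and 21 at the threshold of 0.01. For the assembly factors 13 to 17 rose and 1 to 6 fell with a library left out, and 11 rose and 1 fell at 0.01. Over all genes 3753 were called at 0.01, against 6212. The cause was not tested for these.

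The replicate numbers showed no clear pairing of the samples: deviations of same-numbered libraries correlated at -0.218, 0.144 and 0.168. Those of differently numbered libraries correlated at -0.403 to 0.336. Deviations within a group of 3 depend on each other, so these values cannot decide whether the samples were paired. With the replicate block 6 members fell, Rps27 among them (-0.82, adjusted p = 0.000946), 1 rose, and Rps27rt passed as higher (0.30, adjusted p = 0.0477). The ratio differences are the same with and without the block by construction, so this is no check of them. With the block, sign-flip permutation cannot go under 0.25. Leaving out 1 library, they ran from -0.70 to -0.60 for Rpl22l1/Rpl22, 0.44 to 0.48 for Rpl7l1/Rpl7, 0.13 to 0.37 for Rpl39l/Rpl39, 0.19 to 0.23 for Rpl36al/Rpl36a and 0.65 to 1.24 for Rps27l/Rps27.

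The siCtrl TPM ratios moved with the length, since length is a divisor in them. With the shortest transcript, the mean length and the length minus 200 bases they were 0.38, 1.19 and 2.21 for Rpl22l1/Rpl22, 0.167, 0.0626 and 0.0365 for Rpl7l1/Rpl7, 0.00557, 0.00452 and 0.00341 for Rpl39l/Rpl39, and 0.377, 0.233 and 0.108 for Rpl36al/Rpl36a. With the first listed transcript, a choice made after seeing the data, they were 0.361 for Rpl22l1/Rpl22 and 0.377 for Rpl36al/Rpl36a. For Rps27l/Rps27 the ratio was 0.653 with the shortest transcript and 0.228 with the copies summed, against 0.429. Depth limits Rpl39l, with 95 to 140 counts a library.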
